A study of Mus musculus with 18 samples.

Results

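Genes that stretch over more than 1 Mb of the mouse genome are the subject here. Of 41388 genes listed in the deposited tables, 52 had a span, from the lowest exon start to the highest exon end, above 1000000 bases. The rule that picked them leaves out 2 further genes, Dmd and Sgcd, and uses no expression value. The data are 18 bulk RNA-seq libraries of ribosome-depleted total RNA from the gastrocnemius, a mostly fast calf muscle, and from the soleus, its slower neighbour. All mice were 12 weeks old, ate chow and were fasted for 4 h. Control mice carried floxed alleles of Mbtps1, which encodes Site-1 Protease, and knockout mice carried the same floxed alleles together with HSA-Cre. HSA-Cre acts in skeletal muscle fibres, so other cells of the muscle keep an intact gene, and there is no group with Cre alone. Each muscle has 5 control and 4 knockout libraries by their titles, although the series text gives 4 per group. The labels do not say whether libraries came from separate mice, or whether both muscles came from the same mice. The p-values therefore cover only the scatter among these libraries, which could be technical.

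Library totals ran from 38992432 to 78219534 counted reads. The libraries labelled knockout held no fewer whole-gene counts of Mbtps1 than the controls. In CPM, which are counts scaled to a library of 1000000 reads, they ran from 29.4 to 34.8 in gastrocnemius controls against 34.5 to 42.6 in knockouts, and from 30.9 to 34.4 against 31.3 to 36.4 in soleus. Whole-gene counts do not isolate a deleted exon, so this neither checks nor contradicts the labels, which were followed. Summed muscle fibre markers (9 genes such as Ckm and Acta1) reached 208426 to 265337 CPM in gastrocnemius and 164682 to 203444 CPM in soleus.

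A gene of this size is almost all intron, and RNA polymerase needs many hours to cross it, so its output depends on long uninterrupted elongation. Genes of this class are best known from neurons, where many encode cell adhesion, axon guidance and synaptic proteins. Several, among them the genes for FHIT and MACROD2, also lie in chromosomal regions prone to breakage. In skeletal muscle the best-known member of the class is the dystrophin gene Dmd, left out here by the rule.

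All 52 genes were protein-coding, and they lay on 20 chromosomes. Their median span was 1.23 Mb against 16750 bases for the other 21422 protein-coding genes. Exons made up a median of 0.732% of the span, against 18.3% in the others. Their exonic length was also larger, with a median of 9368 against 2879 bases, and they had a median of 23 separate exon blocks against 7. The longest gap between exons had a median of 0.345 Mb, or 26.3% of the span.

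**Figure D1:**
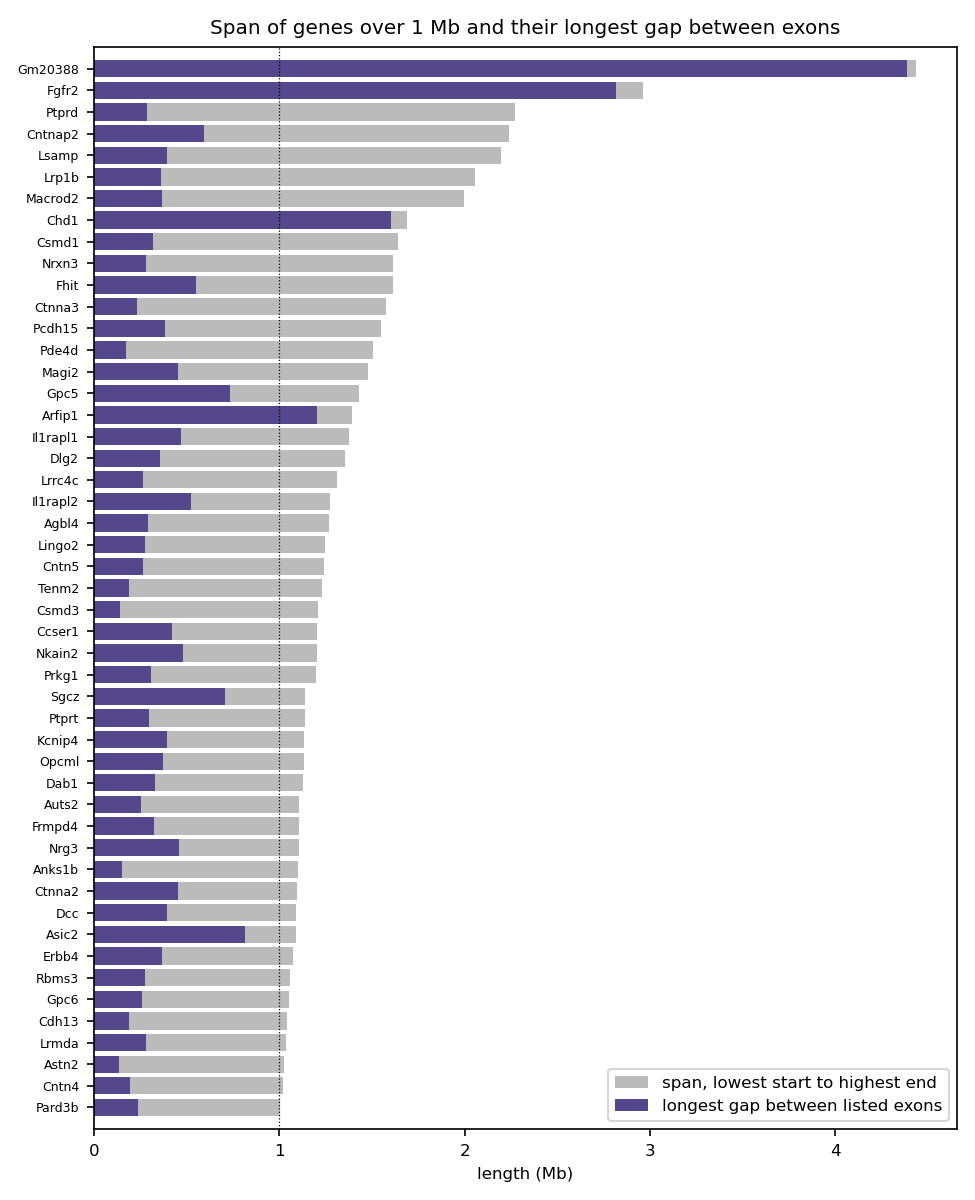
Horizontal bars give the span of 49 of the 52 genes in Mb (grey) and the longest gap between listed exons (purple), with a dotted line at the 1 Mb limit. In 4 genes (Gm20388, Fgfr2, Chd1 and Arfip1) 1 gap takes up over 80% of the span; the longest gap in Gm20388 is 4.38 of 4.43 Mb.

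The limit caught 4 genes of a different build from the rest. Gm20388, the longest at 4434881 bases, was a predicted read-through model with 181 genes inside its span and 0 counts in every library. Of its 3953 exonic bases it shared 3854 with Galnt2 and 99 with Usp10 on the same strand, so its 0 need not measure its own transcription. Fgfr2, a fibroblast growth factor receptor, spanned 2960899 bases with a gap of 2815493, and shared 314 exonic bases with the transcriptional corepressor gene Ctbp2. Chd1, a chromatin remodeller, and Arfip1, which encodes a binding partner of small GTPases, spanned 1689931 and 1391423 bases in the deposited tables but 67643 and 86532 bases in the GENCODE M21 annotation of the same build, GRCm38. In RefSeq, 48 of 51 genes with an entry were over 1 Mb, and the exceptions were Fgfr2, Chd1 and Arfip1. Counts of Arfip1 (which shares exons with Glt28d2), Fgfr2 and Kcnip4 (which shares exons with an unnamed gene on the opposite strand) are uncertain, since the other gene's mean count was 52.1%, 3154% and 92.2% of theirs.

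Those closest to the limit on the inside were Pard3b (1003460 bases), Cntn4 (1021650) and Astn2 (1023808). Just outside were Sdk1 (974096), Celf2 (969869) and Ntm (968391). In gastrocnemius controls the mean levels were 15.1 ± 1.24 CPM for Pard3b, 0.0192 ± 0.0266 for Cntn4 and 1.99 ± 0.272 for Astn2 (SD, n = 5). Outside the limit they were 101 ± 9.77 for Sdk1, 110 ± 7.30 for Celf2 and 0.517 ± 0.239 for Ntm.

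Most of these genes were barely transcribed in muscle, and a handful carried nearly all of the reads. Together they held 0.0601% ± 0.00217 of all counts in gastrocnemius controls (SD, n = 5) and 0.0684% ± 0.0018 in soleus controls. In the libraries labelled knockout the shares were 0.0542% ± 0.00526 and 0.0647% ± 0.00248 (n = 4). Without Pde4d, the gene with most counts, they were 0.0347% and 0.0334% in gastrocnemius controls and knockouts, and 0.0479% and 0.0442% in soleus.

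Per length (RPKM, which is CPM divided by exonic length in kilobases, averaged over all 18 libraries), Pde4d was first at 18.5 RPKM. It encodes a phosphodiesterase that breaks down cyclic AMP. Cdh13, the membrane-anchored T-cadherin that binds adiponectin, followed at 9.77 RPKM, and Prkg1, the cyclic GMP-dependent protein kinase, at 6.04 RPKM. Chd1 reached 3.34, Arfip1 3.11 and Auts2, a nuclear partner of Polycomb proteins, 3.04 RPKM. The next were Ctnna3 (alpha-T-catenin, which ties cadherins to actin) at 1.92, the RNA-binding protein gene Rbms3 at 1.42 and the polarity gene Pard3b at 1.35 RPKM.

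Genes were compared between groups on counts with edgeR's quasi-likelihood test. A gene was called at a Benjamini-Hochberg adjusted p under 0.05 over all tested genes, and differences are log2 fold changes with standard errors (SE). In gastrocnemius 36 of the 52 genes had enough counts to test, and in the other comparisons 38 had.

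In the gastrocnemius, 3 of the long genes fell in the libraries labelled knockout and none was called higher by edgeR. They were Cntnap2, Ctnna3 and Macrod2, and their knockout levels were about 43% to 65% of the control levels. Among all 16393 tested genes 3.78% were called, 1.77% higher and 2.01% lower, so 3 of 36 rests on few genes. The median log2 fold change was -0.00 over the 36 and 0.02 over all tested genes. As these are bulk tissues, fewer cells of a type and less RNA per cell cannot be told apart.

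Ctnna3 measured 21.1, 25.0, 16.9, 20.8 and 16.9 CPM in gastrocnemius controls 1, 3, 4, 5 and 8. In knockouts 2, 6, 7 and 9 it measured 12.1, 10.8, 6.36 and 6.20 CPM. Every knockout library lay below every control library. The fitted difference was -1.18 (SE 0.23, adjusted p = 0.0253).

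Cntnap2 encodes Caspr2, a neurexin-like protein that gathers potassium channels beside the nodes of myelinated axons. It measured 14.6, 8.82, 11.9, 13.5 and 10.5 CPM in gastrocnemius controls 1, 3, 4, 5 and 8, and 5.97, 4.17, 3.07 and 7.05 CPM in knockouts 2, 6, 7 and 9. The groups did not overlap here either, and the difference was -1.22 (SE 0.23, adjusted p = 0.0218).

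Macrod2 encodes an enzyme that strips ADP-ribose from proteins. Its levels were 7.30, 8.18, 7.30, 6.51 and 6.48 CPM in controls 1, 3, 4, 5 and 8, and 5.56, 4.14, 3.61 and 5.27 CPM in knockouts 2, 6, 7 and 9. The gap between the groups was narrower, and the difference was -0.62 (SE 0.14, adjusted p = 0.0315).

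Erbb4, a receptor for neuregulins, also had groups that did not overlap, with 0.988, 1.41, 0.876, 1.30 and 0.794 CPM in the controls and 0.593, 0.679, 0.319 and 0.285 in the knockouts. Its difference of -1.19 (SE 0.34) missed the threshold in edgeR (adjusted p = 0.0637). DESeq2 called it lower (adjusted p = 0.0107). So did edgeR with no filter on low counts (0.0344) and with a correction for a trend of counts on span (0.041). It was also called in a joint fit of all 18 libraries (0.036) and without knockout 2 (0.0458). In the other 10 of 15 alternatives, limma voom among them, it was not called (adjusted p up to 0.15). It was 1 of 4 among the 36 whose groups did not overlap, all 4 of them lower in knockouts, against 8.33% of all tested genes without overlap and 4.6% lower without overlap. These 4 genes sat at different levels, from near 1 CPM for Erbb4 to above 15 CPM for Ctnna3 in every control.

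**Figure D2:**
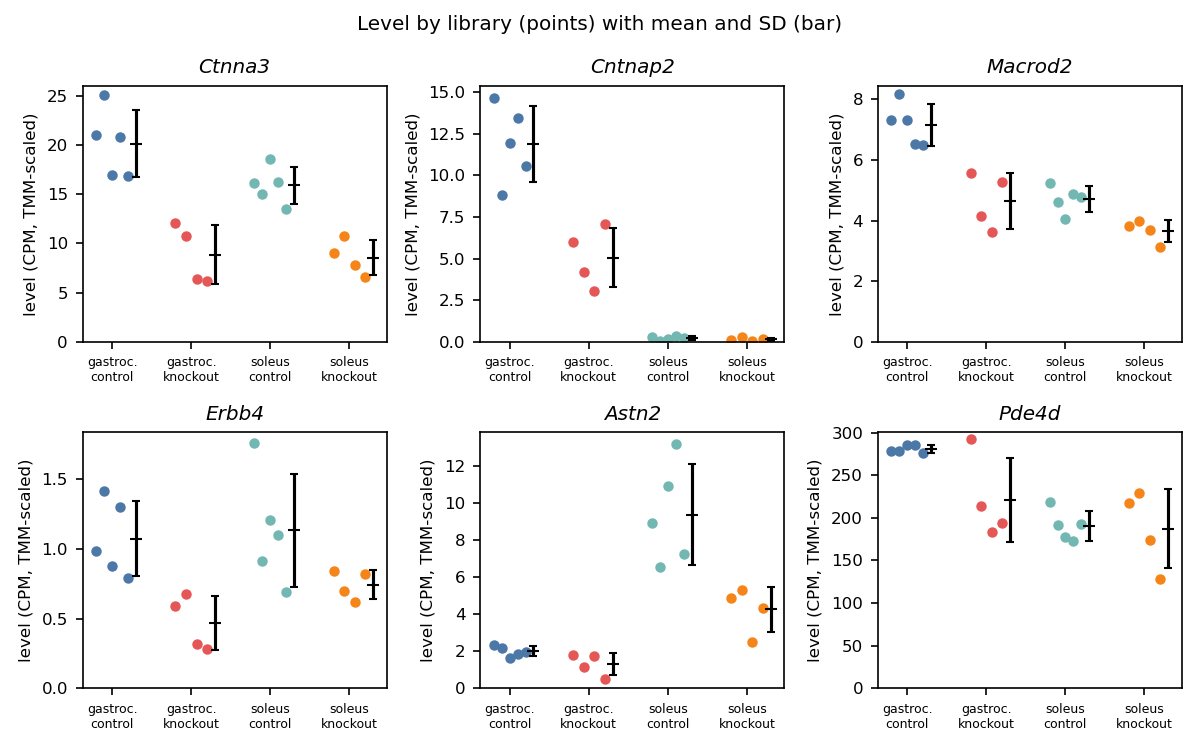
Points are single libraries and bars are group means with SD, in CPM scaled by the TMM method, for 6 of the genes in gastrocnemius and soleus controls (n = 5) and knockouts (n = 4). Ctnna3 and Macrod2 separate controls from knockouts in both muscles, Cntnap2 and Erbb4 do so in gastrocnemius, Astn2 does so in soleus, and Pde4d overlaps in both.

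These calls rest on few libraries. Leaving out control 5 or knockout 6 raised the adjusted p of Cntnap2 to 0.0575 and 0.0775. For Ctnna3 it rose to between 0.0596 and 0.0655 when any of control 1, control 5 and knockout 7 was left out. For Macrod2 it was 0.0558 to 0.106 when any of controls 1, 3, 4 and 5 and knockouts 6 and 7 was missing. With no filter on low counts Cntnap2 and Ctnna3 also missed the threshold (0.0548 and 0.0528), while the fold changes stayed negative in each of these fits. Without knockout 2, 7 long genes were called, as were 1080 of all tested genes in place of 619. Pde4d, Erbb4 and Asic2 then joined those that fell, and Lsamp rose.

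Each of the 3 called genes holds another gene inside an intron, and none shares exonic bases with it. Lrrtm3, a synaptic adhesion gene on the opposite strand inside Ctnna3, had a mean count that was 14.3% of the count of Ctnna3. Its difference was -0.64 (SE 0.49, adjusted p = 0.558) in gastrocnemius and -0.77 (SE 0.21, adjusted p = 0.311) in soleus. Flrt3 inside Macrod2 measured -0.35 (SE 0.34, adjusted p = 0.652) and the pseudogene Rbpj-ps3 inside Cntnap2 -0.35 (SE 0.32, adjusted p = 0.615) in gastrocnemius.

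Promoters of Ctnna3 and Cntnap2 are shown because these genes had the largest called decreases and their most upstream RefSeq start equals the first base of the deposited gene. RefSeq lists 3 starts for Ctnna3 and 2 for Cntnap2, and which is used in these muscles was not tested. Each line gives the 250 bases before the most upstream RefSeq (GRCm38.p6) start, 5′ to 3′, with every CG pair in capitals. Ctnna3 is chr10:63429848-63430097 and Cntnap2 is chr6:45059811-45060060, both on the plus strand.
Ctnna3: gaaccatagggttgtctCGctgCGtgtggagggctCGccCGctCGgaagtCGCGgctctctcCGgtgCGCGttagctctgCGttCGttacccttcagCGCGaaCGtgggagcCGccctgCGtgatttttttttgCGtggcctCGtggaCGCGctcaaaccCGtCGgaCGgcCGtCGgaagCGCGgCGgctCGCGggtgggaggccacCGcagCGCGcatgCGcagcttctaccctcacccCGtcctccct
Cntnap2: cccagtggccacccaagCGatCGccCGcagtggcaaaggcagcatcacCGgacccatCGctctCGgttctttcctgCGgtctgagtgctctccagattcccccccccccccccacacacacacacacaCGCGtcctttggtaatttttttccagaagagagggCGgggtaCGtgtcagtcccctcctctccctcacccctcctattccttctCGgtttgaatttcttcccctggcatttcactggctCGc

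The Ctnna3 promoter held 36 CG pairs and 67.6% G and C, with a CG ratio (observed over expected from base content) of 1.26. The Cntnap2 promoter held 13 CG pairs and 59.6% G and C, with a ratio of 0.657. In the same window of Macrod2, before the more upstream of 2 listed starts, these were 30, 76.4% and 0.823. The median over 32851 RefSeq promoters was 52.4% G and C with a ratio of 0.373, and 34.0% of promoters had a ratio above 0.6. So all 3 windows lay on the CG-rich side of mouse promoters. They had 0 matches on either strand to the E-box CANNTG, which occurs in 66.2% of all promoters. They also had 0 to the MCAT element CATTCC (in 12.6% of promoters) and to the TATA element TATAAA (in 12.4%).

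Apart from Ctnna3, 7 of the genes with the highest levels showed small differences between gastrocnemius groups, none of them called by edgeR. Cdh13 differed by 0.03 (SE 0.07), Prkg1 by 0.03 (SE 0.08), Chd1 by 0.02 (SE 0.07), Arfip1 by 0.05 (SE 0.08), Rbms3 by 0.15 (SE 0.09), Auts2 by -0.09 (SE 0.10) and Pard3b by -0.15 (SE 0.10), with adjusted p from 0.374 to 0.912. Pde4d was uneven among the knockout libraries. Pde4d measured 279, 278, 285, 285 and 276 CPM in the controls 1, 3, 4, 5 and 8 but 292, 214, 183 and 194 in knockouts 2, 6, 7 and 9. Knockout 2 thus lay above every control and the other 3 below every control, and the difference was -0.34 (SE 0.12, adjusted p = 0.125).

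Some genes of the synapse had positive differences in the gastrocnemius that edgeR did not call, and the next 3 were picked for that. Lsamp, an adhesion protein of the IgLON family, measured 0.72 (SE 0.21, adjusted p = 0.0704). DESeq2 called it higher (adjusted p = 0.0192), as did edgeR without knockout 2 (0.0431). The other 13 of 15 alternatives did not (adjusted p up to 0.171). Dlg2, a synaptic scaffold, measured 1.11 (SE 0.49, adjusted p = 0.238). Ptprd, a receptor tyrosine phosphatase of synapses, measured 0.34 (SE 0.11, adjusted p = 0.106), and edgeR called it without control 3 (adjusted p = 0.041). The other 14 of 15 alternatives left it uncalled (adjusted p up to 0.25). In all, 11 of 36 (30.6%) had an unadjusted p under 0.05 by edgeR in either direction, against 18.6% of all tested genes. The decreases of Cntnap2, Ctnna3 and Macrod2 are among these 11.

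The share of genes called in gastrocnemius differed by span class. It was 2.30% among genes under 10 kb, 4.42% from 10 to 100 kb, 4.70% from 100 to 500 kb, 7.62% from 500 kb to 1 Mb (8 of 105) and 8.33% over 1 Mb (3 of 36). Genes from 500 kb to 1 Mb were called higher 4 times and lower 4 times. Between the muscles in controls the share also rose with span, from 43.5% under 10 kb to 62.9% from 500 kb to 1 Mb. Over 1 Mb it was 47.4%. Between the muscles in knockouts it rose from 31.0% to 45.7% over the same classes and was 28.9% over 1 Mb. These shares are a description, since the classes differ in level and exonic length as well as span.

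In the soleus a single long gene passed the threshold. Ctnna3 again fell, from 16.1, 15.0, 18.6, 16.2 and 13.5 CPM in controls 34, 36, 37, 38 and 41 to 9.06, 10.8, 7.76 and 6.58 CPM in knockouts 35, 39, 40 and 42. The groups did not overlap, and the difference was -0.88 (SE 0.13, adjusted p = 0.0297). Of 18087 tested genes 10 were called (0.0553%), 7 of them higher (0.0387%) and 3 lower (0.0166%), and Ctnna3 was the only one of the 38 long genes. The median was -0.03 over the 38 and -0.00 over all tested genes.

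Leaving out any of controls 34, 36, 37 and 38 and knockout 40 took this call away, at adjusted p of 0.0725 to 0.118. So did limma voom (adjusted p = 0.0502), a correction for a trend of counts on span (0.0708) and a joint fit of all 18 libraries (0.0781). The fold change stayed between -0.82 and -0.91 in these fits.

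The groups did not overlap for 5 of the 38 (background 2.62%, with 1.34% lower and 1.28% higher). Besides Ctnna3 these were Astn2, Macrod2 and Pard3b, lower in knockouts, and Anks1b, higher. Astn2 encodes astrotactin 2, a membrane protein of migrating neurons. It measured 8.93, 6.51, 10.9, 13.2 and 7.26 CPM in soleus controls 34, 36, 37, 38 and 41, and 4.89, 5.28, 2.51 and 4.35 in knockouts 35, 39, 40 and 42, a difference of -1.13 (SE 0.25, adjusted p = 0.225). DESeq2 called it as well as Ctnna3. The other 14 of 15 alternatives left Astn2 uncalled (adjusted p up to 0.523). The ubiquitin ligase gene Trim32 lies inside Astn2 on the opposite strand with 176% of its mean count, and measured -0.00 (SE 0.11, adjusted p = 0.999).

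Macrod2 in soleus measured 5.25, 4.60, 4.05, 4.88 and 4.76 CPM in controls and 3.81, 3.99, 3.67 and 3.14 in knockouts. The highest knockout and the lowest control nearly touched, and the difference of -0.35 (SE 0.12) was not called (adjusted p = 0.457). Pard3b measured -0.22 (SE 0.08, adjusted p = 0.457) and the synaptic scaffold gene Anks1b 0.51 (SE 0.24, adjusted p = 0.61). Cntnap2 held only 3 to 19 counts in any soleus library, so its difference of -0.54 (SE 0.54, adjusted p = 0.867) says little.

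**Figure D3:**
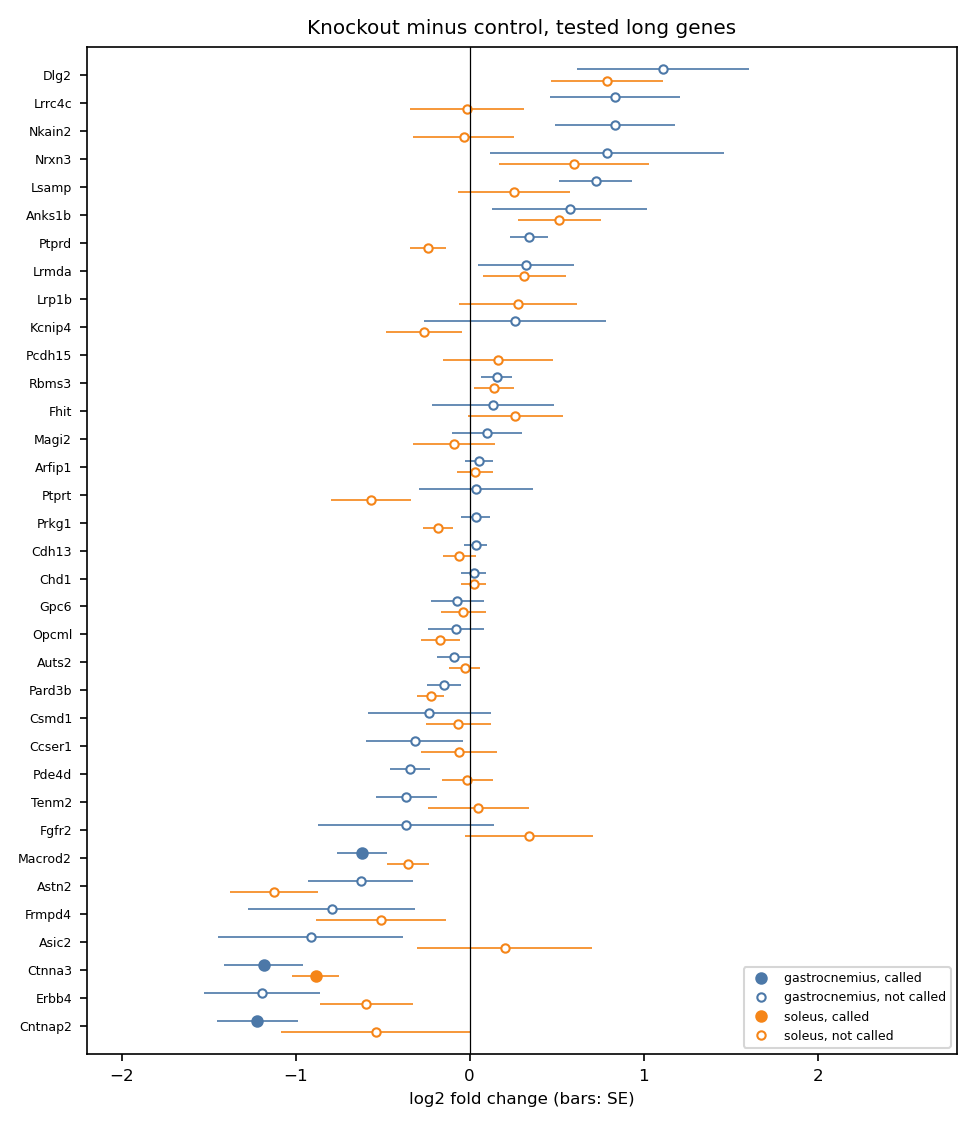
Points are log2 fold changes, knockout minus control, with SE bars, for 33 tested genes in gastrocnemius (blue) and 35 in soleus (orange), and filled points were called. Called points are Cntnap2, Ctnna3 and Macrod2 in gastrocnemius and Ctnna3 in soleus, all on the negative side.

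Differences of the knockout effect between the muscles were tested as an interaction. None of the 38 was called by edgeR, DESeq2 or limma voom, against 0.0703% of all tested genes, and 3 had an unadjusted p under 0.05 by edgeR (background 5.4%). These were Ptprd (-0.58, SE 0.16, adjusted p = 0.353), Pcdh15 (-3.12, SE 0.85, adjusted p = 0.374) and Lrp1b (-2.36, SE 0.81, adjusted p = 0.658). For Ctnna3 the effects in gastrocnemius and soleus differed by 0.30 (SE 0.27, adjusted p = 1.00), for Macrod2 by 0.26 (SE 0.19, adjusted p = 0.988) and for Cntnap2 by 0.75 (SE 0.58, adjusted p = 0.99).

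The 2 muscles differed far more than the genotypes did. In controls 18 of 38 long genes were called, 12 higher and 6 lower in soleus. That is close to the background of 49.3% called, 27.4% higher and 21.9% lower. The median difference was 0.18 over the 38 and 0.08 over all tested genes. With a correction for a trend of counts on span the split became 8 higher and 11 lower. Cdh13 and Chd1 then lost their calls (adjusted p = 0.663 and 0.222), as did Anks1b and Opcml.

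Of the adhesion genes, Cntnap2 differed most. It measured 8.82 to 14.6 CPM in gastrocnemius controls and 0.310, 0.0561, 0.177, 0.359 and 0.229 CPM in soleus controls 34, 36, 37, 38 and 41. It was 54.7-fold lower in soleus (log2 difference -5.77, SE 0.34, adjusted p = 7.33e-11). The knockout libraries showed the same gap, with -5.03 (SE 0.40, adjusted p = 9.4e-09). Schwann cell markers (10 genes) summed to 243 to 419 CPM in gastrocnemius controls and 78.7 to 269 CPM in soleus controls, with 5 of 10 called lower, and neuron markers (9 genes, Chat at 0 in both control groups) summed to 2.25 to 5.76 CPM over both. Their part in the result was not tested.

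Pcdh15, a protocadherin of the hair cell tip link, went the other way. It measured 0, 0, 0.0584, 0 and 0.0215 CPM in gastrocnemius controls 1, 3, 4, 5 and 8 and 0.440, 0.435, 0.815, 0.777 and 0.335 CPM in soleus controls. These are 3 counts against 185, a depth-adjusted ratio of 38.5 (95% interval 13.0 to 189, counting error only). Lrp1b, a large receptor of the LDL receptor family, had 6 counts against 141, a ratio of 14.7 (6.58 to 40.7). The edgeR differences were 5.01 (SE 0.63, adjusted p = 7.85e-07) and 3.75 (SE 0.60, adjusted p = 2.26e-05). Pcdh15 and Lrp1b did not pass the count filter in the gastrocnemius libraries alone. Among controls, their median count reached 10 only in soleus, as did those of Anks1b and Nrxn3. That of Asic2 reached 10 only in gastrocnemius.

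At higher levels, Prkg1 stood out among the enzymes. It measured 23.6, 24.3, 23.3, 24.0 and 25.2 CPM in gastrocnemius controls and 81.2, 72.6, 75.1, 75.1 and 65.5 CPM in soleus controls. The difference of 1.60 (SE 0.08, adjusted p = 8.33e-13) is 3.04-fold, and it was 1.38 (SE 0.09, adjusted p = 1.07e-10) in knockouts. The gene Cstf2t, inside Prkg1 on the opposite strand, measured 0.30 (SE 0.08).

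Astn2 was 4.65-fold higher in soleus controls (log2 difference 2.22, SE 0.28, adjusted p = 2.41e-06). Trim32 inside it was lower there (-0.50, SE 0.09, adjusted p = 0.000148). The phosphatase genes Ptprt (1.50, SE 0.28) and Ptprd (0.70, SE 0.10) and the polarity gene Pard3b (0.56, SE 0.08) were also higher in soleus, with groups that did not overlap. So were Chd1 (0.32, SE 0.07) and Cdh13 (0.24, SE 0.08) at smaller size. Endothelial markers, a cell type in which T-cadherin is found, were higher in soleus controls for 7 of 7 genes, with a sum of 498 to 536 CPM against 352 to 384 CPM. Their part in the result was not tested.

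On the gastrocnemius side were Asic2, an acid-sensing ion channel (-1.57, SE 0.50), Macrod2 (-0.62, SE 0.12), Pde4d (-0.57, SE 0.14), Auts2 (-0.56, SE 0.09) and the teneurin gene Tenm2 (-0.65, SE 0.23). Tenm2 lost its call without gastrocnemius control 3 or soleus control 36, 37 or 41 (adjusted p up to 0.0679). Auts2 measured 66.3, 57.4, 65.8, 52.4 and 57.0 CPM in gastrocnemius controls and 39.3, 35.4, 37.9, 48.5 and 43.7 CPM in soleus controls, with no overlap. The groups did not overlap for 14 of the 38 in controls, against 36.7% of all tested genes.

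In the libraries labelled knockout, 11 of 38 were called between the muscles, 7 higher and 4 lower in soleus (background 37.8%, with 19.2% higher and 18.5% lower). All 18 genes called in controls had the same sign in knockouts. Of them 10 were called in both, which is 55.6% of the control calls and 90.9% of the knockout calls. Over all tested genes 98.2% of the control calls had the same sign in knockouts, 68.6% were also called there, and 89.6% of the knockout calls were called in controls. Lsamp was called in knockouts (-1.02, SE 0.29, adjusted p = 0.00897) and not in controls (-0.54, SE 0.27, adjusted p = 0.102), and the difference between them was not called (adjusted p = 0.997). Pcdh15 measured 1.89 (SE 0.48) and Lrp1b 1.39 (SE 0.50) in knockouts, below their values in controls.

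**Figure D4:**
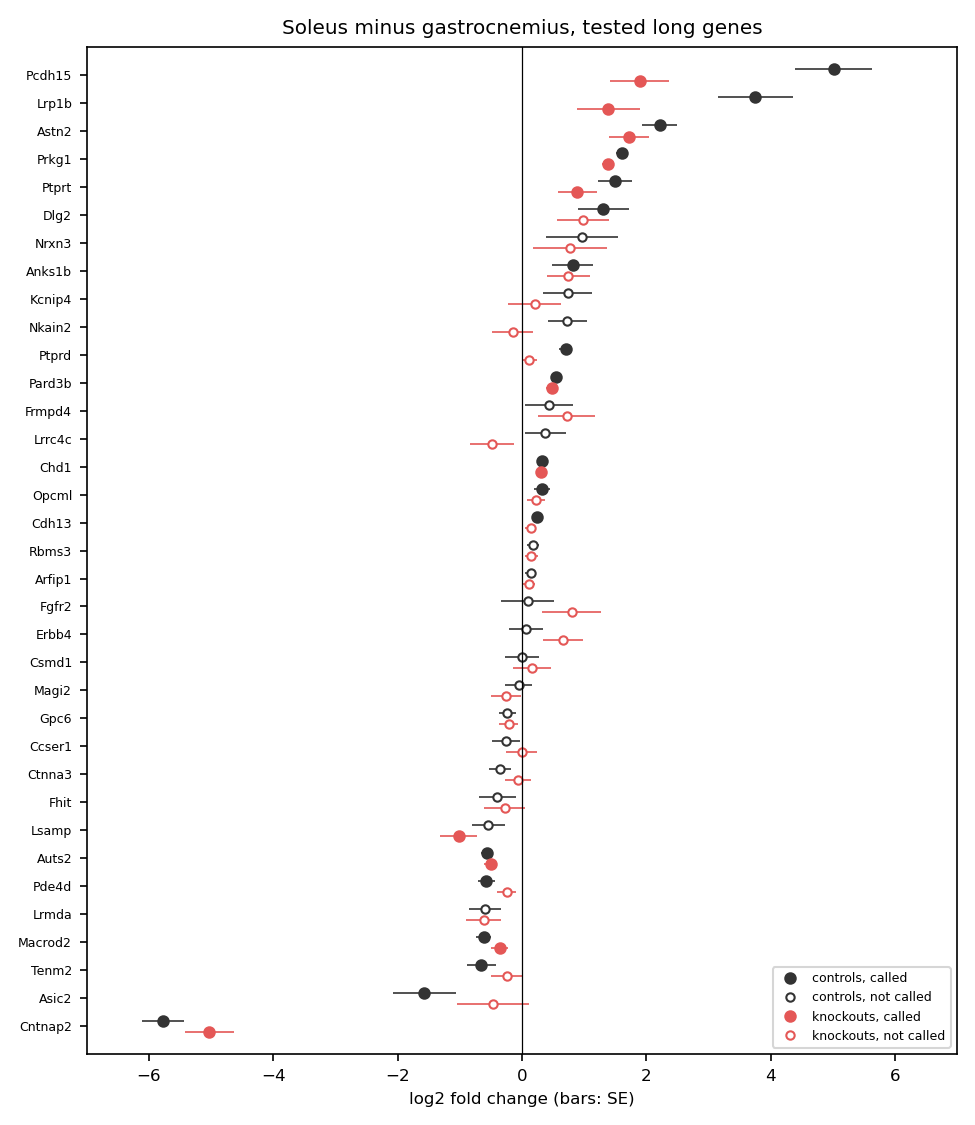
Points are log2 fold changes, soleus minus gastrocnemius, with SE bars, for 35 of the 38 tested genes in controls (black) and in knockouts (red), and filled points were called. Pcdh15 (5.01) and Lrp1b (3.75) in controls sit at the top and Cntnap2 (-5.77) at the bottom, and the knockout points of Pcdh15 (1.89) and Lrp1b (1.39) lie nearer to 0.

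Factors that act on long transcripts were looked at as a separate list of 39 genes, all tested. In gastrocnemius 2 fell and 0 rose, which is 5.13% of the list and near the 3.78% of all tested genes. They were Ccnk, the cyclin partner of the elongation kinases CDK12 and CDK13 (-0.48, SE 0.09, adjusted p = 0.0106), and Tcea3, an elongation factor of the TFIIS family (-0.33, SE 0.09, adjusted p = 0.0484). Tcea3 lost its call in 8 of 15 alternatives, namely limma voom, the joint fit of all 18 libraries, and fits that left out any of controls 1, 4 and 5 and knockouts 6, 7 and 9. Its adjusted p was at most 0.131 there. The list's median was -0.03 against 0.02 over all tested genes. In soleus none of the 39 was called. Between the muscles in controls 15 were higher and 10 lower in soleus, or 64.1% against 49.3% of all tested genes. Ccnk was the widest of the lower ones at -1.70 (SE 0.09, adjusted p = 8.36e-13).

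The remaining 14 genes had too few counts for any comparison. They were Gm20388, Gpc5, Il1rapl1, Il1rapl2, Agbl4, Lingo2, Cntn5, Csmd3, Sgcz, Dab1, Nrg3, Ctnna2, Dcc and Cntn4, most of them genes of neuronal adhesion and guidance. Their summed level was 0.107 to 0.429 CPM in gastrocnemius controls and 0.687 to 0.958 CPM in gastrocnemius knockouts. In soleus it was 0.277 to 0.555 CPM in controls and 0.867 to 1.22 CPM in knockouts. The groups did not overlap in either muscle, at 5 to 20 counts against 28 to 42 and 17 to 47 against 45 to 74 counts a library. This sum was formed after the values were seen, and no test was made of it.

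Shorter genes without enough counts also had ratios above 1, each smaller than that of the long genes. Their groups did not overlap either in several span classes. In gastrocnemius these were under 10 kb, 10 to 100 kb and 100 to 500 kb (9.17 to 11.6 CPM in controls, 15.4 to 17.8 in knockouts). In soleus they were 10 to 100 kb and 100 to 500 kb (10.3 to 12.6 CPM in controls, 13.3 to 18.2 in knockouts). The remaining shorter classes overlapped. The mean ratio of knockout to control was 2.94 in gastrocnemius and 2.37 in soleus for the 14 long genes. It was 1.27 and 1.13 for 4210 untested protein-coding genes under 10 kb, 1.399 and 1.22 for 2281 from 10 to 100 kb, 1.63 and 1.43 for 291 from 100 to 500 kb, and 1.42 and 1.38 for 39 from 500 kb to 1 Mb. Per Mb of exon, the long genes held 2.58 CPM in gastrocnemius controls, where the other classes held 7.08 to 8.89. In the knockouts they held 7.57 CPM against 10.2 to 11.7. In soleus they held 4.13 CPM in controls against 5.87 to 10.6, and 9.77 CPM in knockouts against 8.10 to 12.4. Thus they were the lowest class in controls of both muscles. In knockouts they came nearer to the others, and in soleus they lay above the class from 500 kb to 1 Mb.

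**Figure D5:**
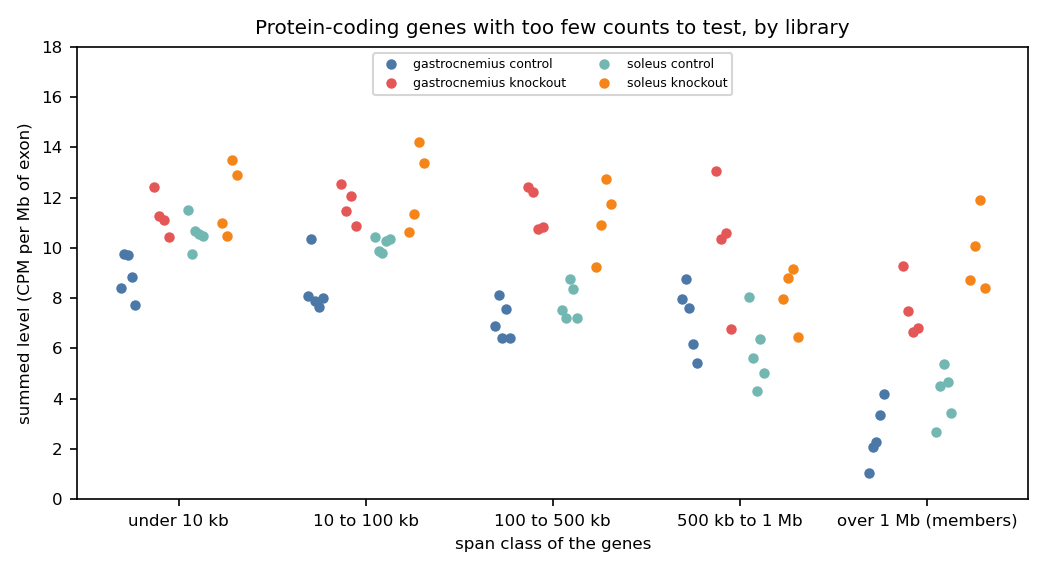
Points are single libraries and show the summed level, in CPM per Mb of exon, of protein-coding genes with too few counts to test, by span class and group. In the class over 1 Mb (14 genes) gastrocnemius controls lie at 1.04 to 4.17 and knockouts at 6.67 to 9.30, and soleus controls at 2.69 to 5.39 and knockouts at 8.42 to 11.9.

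The number of long genes with at least 1 count followed the same order. It was 40 to 42 of 52 in gastrocnemius controls and 44 to 48 in knockouts, and at the depth of the shallowest library the expected numbers were 39.6 to 41.9 and 43.8 to 47.9. In soleus it was 43 to 47 in controls and 46 to 51 in knockouts. Over all listed genes the numbers with a count were 21701 to 22766 in gastrocnemius controls and 22343 to 23563 in knockouts, which overlap. In soleus they were 23710 to 24916 in controls and 23689 to 24865 in knockouts, with no adjustment for depth. At the depth of the shallowest library, 21701 to 22708 were expected in gastrocnemius controls and 22257 to 23311 in knockouts. In soleus 23460 to 23812 (median 23505) were expected in controls and 23474 to 24332 (median 24022) in knockouts. The ranges overlapped in both muscles, with higher medians in knockouts. For the long genes in soleus the expected numbers were 42.5 to 46.6 and 45.9 to 49.7.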

How the data were processed

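The authors deposited, per the file headers, a count, a CPM and an RPKM per Ensembl gene for each library. The deposited CPM and RPKM values equalled the deposited counts rescaled, to within 4.95e-10 and 4.07e-10, so tests used the deposited counts. Named in the submitters' processing notes, without their roles, are GRCm38, STAR 2.5.1a, featureCounts 1.4.6-p5, Subread and bcl2fastq. For annotation release, strand setting and multi-mapping, nothing was stated (not given in the sources used here). Without strand, reads of overlapping genes cannot be told apart. Symbols came from GENCODE M21 for 40254 of 41388 genes.

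Spans were taken from the start and end columns. Levels printed here are CPM with TMM scaling over all 18 libraries, and RPKM from these by exonic length. Each knockout comparison was fitted in its own muscle, and muscle comparisons and the interaction in all 18 libraries, with edgeR 4.0.16 (R 4.3.3) after its default filter on low counts (minimum count 10, minimum total 15). The code was tested on simulated data. Alternatives were DESeq2 1.42.0, limma 3.58.1 voom, DESeq2 size factors, no filter, a lowess offset on span, other sets of libraries and each library left out. No replicates were merged, since pairs differed by a chi-square per gene of 17.7 to 125.

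The genes and lists were chosen with earlier results of these data known. Named genes are those called between genotypes, up to 10 a direction of those called between muscles in controls without overlap, the 10 highest by RPKM, the 3 on each side of the limit and the longest. Erbb4, Astn2 in soleus, Pde4d, Lsamp, Dlg2, Anks1b, Tenm2, Opcml and the untested genes were described after their values were seen. Another 3 of the long genes enter the counts but are not reported here by name or in plots.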

Additional observations from a re-analysis of the deposited data

Results flagged for a closer look

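Levels in 68 groups of 4 or 5 libraries were searched for 1 library far from the others, and 3 were found where chance alone gives about 1 in 20 groups. Chd1 was high in gastrocnemius knockout 6, at 38.8 CPM against 34.2 to 34.8 in the other 3. Cdh13 was high in soleus knockout 42, at 141 CPM against 104 to 105. Asic2 was high in gastrocnemius knockout 2, at 0.570 CPM against 0.0936 to 0.152, the library that also held the highest Pde4d.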

How the results depend on the processing

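No paired analysis was possible because the groups share no replicate numbers. Of 59 fold changes recomputed, 56 kept their sign under each alternative run. The 3 others were uncalled values near 0 in gastrocnemius knockouts: with 1 library left out, Cdh13 ran from -0.0228 (without knockout 7) to 0.0718, Prkg1 from -0.0558 (without knockout 6) to 0.0832 and Chd1 from -0.0222 (without knockout 6; -0.00691 without control 4) to 0.0671. The number of long genes called in gastrocnemius knockouts, 3 in the reported fit, was 5 with DESeq2 and 5 with a span trend offset. It was 6 in a fit of all 18 libraries, where Pcdh15 and Lrp1b passed the filter only through their soleus counts. The number was 0 to 7 with 1 library left out. It was 1 without control 1, knockout 6 or knockout 7 and 0 without control 5. The soleus number, 1, was 2 with DESeq2 and 0 with limma voom, with the span trend offset and in the fit of all 18 libraries, and 0 to 1 with 1 library left out. With 1 library left out, the calls between muscles ran from 16 to 19 in controls and from 8 to 11 in knockouts, and the interaction stayed at 0. The cause of these moves was not tested. Over all tested genes, the calls were 619 in gastrocnemius (1232 with DESeq2) and 10 in soleus (166 with DESeq2, 48 with no filter and 28 in the fit of all 18 libraries). With 1 library left out they ran from 206 to 1080 in gastrocnemius and from 3 to 66 in soleus. Between muscles in knockouts, Macrod2 lost its call in 16 of 24 alternatives, Lrp1b in 6 and Ptprt in 5. In controls, Anks1b and Opcml each lost theirs in 16 of 24. Lsamp was called in controls with the span trend offset and without soleus control 41 (adjusted p = 0.0293 and 0.0331). A limit of 800000 bases would give 85 genes and 500000 would give 209. Depth limits the genes below about 1 CPM, which held few counts in each library.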

Other observations

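Among the long genes with almost no reads, Dab1, an adaptor of the reelin pathway, differed most in counts, and it was picked after its values were seen. It had 0 to 2 counts in each gastrocnemius control and 8 to 16 in each knockout. Summed, these are 7 against 43 counts, a depth-adjusted ratio of 6.92 (95% interval 3.08 to 18.2, counting error only). In soleus it measured 0.0163, 0.0842, 0.0708, 0.0997 and 0.0705 CPM in controls 34, 36, 37, 38 and 41 and 0.160, 0.154, 0.264 and 0.0654 CPM in knockouts 35, 39, 40 and 42, and the groups overlapped through knockout 42.

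Pcdh15 and Lrp1b had too few counts for the gastrocnemius comparison on its own. Pcdh15 had 3 counts in the gastrocnemius controls and 30 in the knockouts, a depth-adjusted ratio of 11.3 (3.50 to 57.6), and Lrp1b had 6 and 35, a ratio of 6.57 (2.73 to 19.1). These intervals cover counting error only. The Pcdh15 groups overlapped, with 0.0491 CPM in knockout 7 and 0.0584 CPM in control 4. Lrp1b measured 0.0859, 0, 0, 0.0531 and 0 CPM in gastrocnemius controls 1, 3, 4, 5 and 8 and 0.114, 0.211, 0.270 and 0.190 CPM in knockouts 2, 6, 7 and 9. Both were called higher when all 18 libraries were fitted together. They passed the filter on low counts in that fit only through their soleus counts, so this call adds no support.

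Macrophage markers (7 genes) summed to 75.1 to 104 CPM in gastrocnemius controls and 95.2 to 162 CPM in knockouts, with 1 called higher. Satellite cell markers (6 genes) summed to 37.4 to 38.2 CPM in gastrocnemius controls and 31.3 to 45.5 CPM in knockouts, with Pax7 called higher (0.85, SE 0.18, adjusted p = 0.0219) and Cdh15 lower (-0.32, SE 0.08, adjusted p = 0.0446). Schwann cell markers summed to 209 to 358 CPM in gastrocnemius knockouts, with 0 of 10 called against controls. Of the 10, 0 had a positive difference (median -0.22, against 0.02 over all tested genes). In soleus knockouts 0 of 10 were called and 0 were positive (median -0.52 against -0.00). Neuron markers summed to 2.64 to 3.81 CPM in gastrocnemius knockouts, with Chat and Nefl at 0. Their part in the changes of the long genes was not tested.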
